A study of Mus musculus with 6 samples.

Results

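Interferon-stimulated genes, the transcripts that cells switch on when an interferon binds its receptor, were followed in RNA sequencing of isolated mouse pancreatic islets. The set is a list of 39 known genes of this kind, taken by symbol from the deposited count table of 53670 genes. All 39 were in the table, and all 39 passed the filter on low counts, so none was left out. The islets came from 6-week-old mice that were wild type (WT, Paupar +/+) or knockout (KO, Paupar -/-) for Paupar, which encodes a long noncoding RNA near Pax6. Each genotype had 3 libraries, and no other allele, agent or treatment is named in the labels. Neither strain, sex and the design of the allele nor the number of mice per library was given in the sources used here. The p-values below therefore rest on the spread among these 6 libraries, part of which may be technical.

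Type I interferons are secreted when a cell detects foreign or misplaced nucleic acid. They signal through JAK1 and TYK2 to a complex that contains STAT2 and IRF9 and binds the interferon-stimulated response element in promoters. In islets this response is known from studies of viral infection and of type 1 diabetes, and both endocrine cells and islet leukocytes can mount it.

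Of the 39 genes, 29 had a promoter in the RefSeq-derived table (GRCm38.p6), and Dhx58, Zbp1, Usp18, Parp9, Parp14, Oas2, Mx1, Mx2, Rtp4 and Ifi27 did not. The core of the response element, GAAA followed by any 2 bases and then GAAA, on either strand, was searched from 250 bases before to 50 bases after each start site, and overlapping matches were counted. It was present in 13 of the 29 genes (44.8%), against 3.79% of the 11376 tested genes with a promoter. A match is a run of letters, not a measured binding site. The promoters of 4 genes are shown, those that hold the core and whose lowest levels fell in the same pair of libraries, WT replicate 3 and KO replicate 1, as described further on. Capitals mark the core and overlapping cores.
Isg15 (chr4:156200769-156201068, minus strand): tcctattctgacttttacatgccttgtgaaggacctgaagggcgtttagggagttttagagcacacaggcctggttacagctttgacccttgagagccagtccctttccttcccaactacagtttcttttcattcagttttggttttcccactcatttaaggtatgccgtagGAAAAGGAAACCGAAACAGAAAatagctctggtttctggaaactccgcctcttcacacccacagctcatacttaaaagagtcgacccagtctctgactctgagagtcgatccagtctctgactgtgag
Ifit1 (chr19:34640639-34640938, plus strand): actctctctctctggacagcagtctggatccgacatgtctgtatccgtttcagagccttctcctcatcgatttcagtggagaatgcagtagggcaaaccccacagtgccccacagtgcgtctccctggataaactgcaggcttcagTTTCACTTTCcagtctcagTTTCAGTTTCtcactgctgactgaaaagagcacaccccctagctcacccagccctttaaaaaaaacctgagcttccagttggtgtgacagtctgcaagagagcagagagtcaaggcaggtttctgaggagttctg
Oas1a (chr5:120907476-120907775, minus strand): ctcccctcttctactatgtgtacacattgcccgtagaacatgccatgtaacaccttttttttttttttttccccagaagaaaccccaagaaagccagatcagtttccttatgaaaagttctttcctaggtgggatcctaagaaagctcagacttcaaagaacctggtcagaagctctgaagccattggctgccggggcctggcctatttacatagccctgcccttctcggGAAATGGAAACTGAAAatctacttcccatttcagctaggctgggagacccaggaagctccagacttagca
Rsad2 (chr12:26456403-26456702, minus strand): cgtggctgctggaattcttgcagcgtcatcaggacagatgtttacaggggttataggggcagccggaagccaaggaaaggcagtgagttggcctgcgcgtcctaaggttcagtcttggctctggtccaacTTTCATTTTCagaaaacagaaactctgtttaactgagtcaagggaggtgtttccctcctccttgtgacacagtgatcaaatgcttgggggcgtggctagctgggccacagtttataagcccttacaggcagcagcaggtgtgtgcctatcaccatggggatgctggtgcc
The matches of Isg15 began 78, 72 and 66 bases before the start and those of Ifit1 104 and 85 bases before it. In Oas1a they began 20 and 14 bases before the start, and in Rsad2 a single match began 120 bases before it.

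Library totals ran from 25733194 to 27285009 counts, and a gene at 0 could hide up to 3 counts, or 0.110 to 0.117 CPM (counts scaled to the library total), from counting error only. The 6 islet hormone genes together stood at 258099 to 315195 CPM, here scaled by TMM like the levels given below. Their sum was higher in every KO library than in any WT library (exact permutation p = 0.1, the smallest possible). Most of it was Ins1 and Ins2, with means of 55852 and 146818 CPM in WT, where the whole sum averaged 266341 CPM. These were the only 2 of the 6 whose groups did not overlap, against 11.3% of all tested genes with KO higher. Mean levels of Gcg, Sst and Ppy were lower in KO, and edgeR called 0 of the 6. Paupar counts were 177, 252 and 111 in the WT libraries, against 4, 0 and 4 in the KO libraries. KO replicate 1 differed from its group in sex-linked transcripts: Xist had 0 counts there against 1120 and 862 in KO replicates 2 and 3, and 1 to 6 in the WT libraries. Genotype and sex cannot be fully told apart, since a contrast between libraries alike in Xist rests on KO replicate 1 alone.

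Interferon-stimulated genes were expressed at low to moderate levels in these islets and none of them passed the test between genotypes. Levels are given in CPM scaled by TMM, and fold changes as log2 of KO over WT with a standard error (SE) from edgeR's quasi-likelihood test, with Benjamini-Hochberg adjustment over all 15915 tested genes. Of the 39 genes, 0 were lower and 0 higher at an adjusted p below 0.05, where 0.170% of all tested genes were called lower and 0% higher. Without adjustment, edgeR gave 4 of them (Irf1, Stat2, Adar and Mx2) a p below 0.05 with a lower level in KO and 0 with a higher one, against 9.38% and 6.99% of all tested genes. DESeq2 called 0 of the 39 in either direction, against 2.75% of all tested genes lower and 1.31% higher. The smallest adjusted p among the 39 was 0.211. Their log2 fold changes were negative for 23 (59.0%, against 49.7% of all tested genes) and positive for 16, with a median of -0.058, beside 0.0023 over all tested genes. For 25 of them the 95% interval of the fold change lay within 2-fold in both directions, and for the other 14 it reached 2-fold or more.

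**Figure D1:**
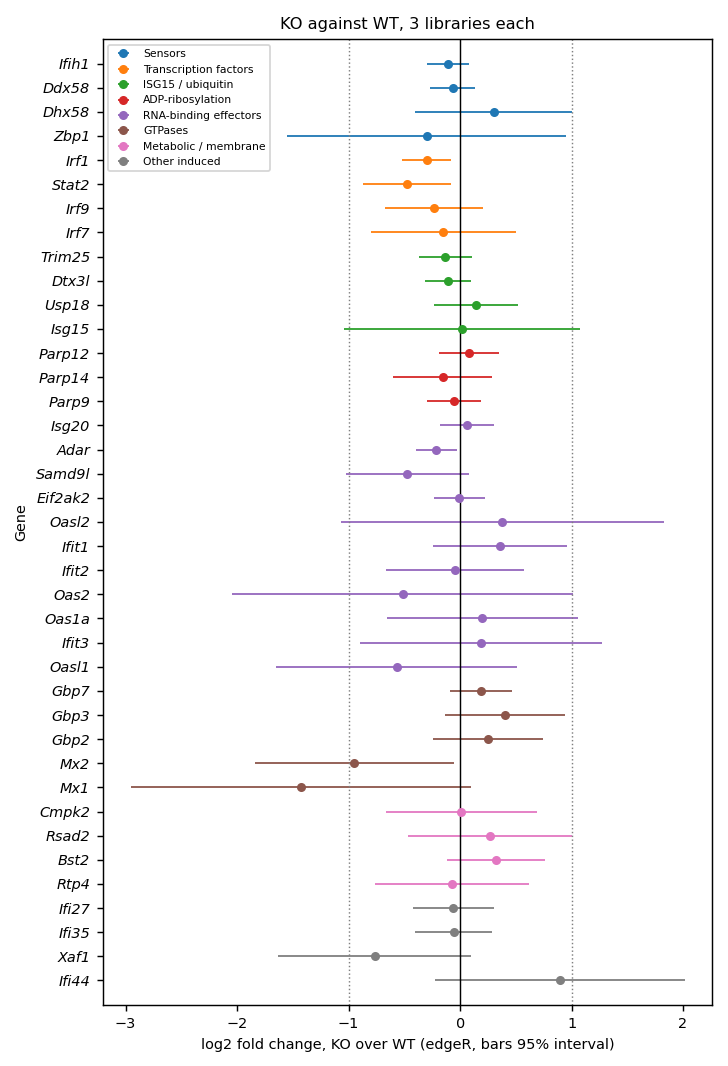
Log2 fold change of KO over WT (x axis) for each of the 39 interferon-stimulated genes (y axis), coloured by role. Points are edgeR estimates from 3 libraries per genotype, bars are 95% intervals and dotted lines mark 2-fold. The widest intervals belong to low genes such as Mx1, and no gene passed the test.

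The groups did not overlap in 3 genes that were lower in KO (Irf1, Adar and Mx2) and 1 that was higher (Gbp7). Such separation was found with KO lower in 12.1% and with KO higher in 11.3% of the tested genes as a whole, so the 39 held no larger share.

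Among the transcription factors of the pathway, all 4 had negative fold changes and none passed the test. Irf1, an activator induced by interferon gamma and by type I interferon (chromosome 11, 53583516 to 53591876 in mm9), stood at 29.0, 30.3 and 26.8 CPM in the WT libraries, in the order of their replicate numbers, and at 25.2, 23.5 and 21.3 CPM in the KO libraries. Every KO library was below every WT library, but the gap between the nearest libraries was small. Its estimate on the log2 scale was -0.30 (SE 0.09, adjusted p = 0.211), which did not pass. Stat2, a subunit of the complex that binds the response element (chromosome 10, 127707629 to 127729905), had 24.7, 22.6 and 18.3 CPM in WT and 19.1, 14.7 and 13.4 CPM in KO. WT replicate 3 and KO replicate 1 met in the middle, with an estimate of -0.48 (SE 0.17, adjusted p = 0.247). Irf9, the DNA-binding subunit of the same complex, had 19.6, 21.2 and 15.3 CPM in WT and 12.9, 19.5 and 15.3 CPM in KO, with overlapping groups (-0.23, SE 0.19, adjusted p = 0.577). In mm9 it shares exon bases with Rnf31 on the same strand, so its values are less certain. Irf7, which amplifies type I interferon production, had 6.28, 7.32 and 4.04 CPM in WT and 3.92, 5.77 and 6.22 CPM in KO. Its lowest libraries were WT replicate 3 and KO replicate 1, which were nearly equal, with an estimate of -0.15 (SE 0.27, adjusted p = 0.825).

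None of the 4 nucleic acid sensors passed the test, and the more abundant pair varied less among libraries than the other. Ifih1, which encodes MDA5, a sensor of long double-stranded RNA, had 26.8, 26.7 and 23.9 CPM in WT and 23.9, 23.4 and 24.6 CPM in KO (-0.11, SE 0.08, adjusted p = 0.549). Ddx58, which encodes RIG-I, a sensor of RNA ends, had 21.8, 19.8 and 20.1 CPM in WT and 18.6, 20.1 and 20.3 CPM in KO (-0.066, SE 0.08, adjusted p = 0.742). For both, the groups overlapped and the 95% interval excluded a change of 2-fold. Dhx58, a related helicase that lacks the signalling domain, was lower in level, with 2.62, 2.68 and 1.45 CPM in WT and 2.28, 2.71 and 3.32 CPM in KO. WT replicate 3 was the lowest of the 6 (0.30, SE 0.30, adjusted p = 0.658). Zbp1, a sensor of Z-form nucleic acid, ranged from 0.630 CPM in WT replicate 3 to 2.84 CPM in WT replicate 1, and all KO libraries lay between these values (-0.30, SE 0.53, adjusted p = 0.817).

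Genes of ISG15 conjugation and ubiquitin signalling included Trim25, the most abundant of the 39. The ubiquitin ligase, which acts on RIG-I, had 94.3, 112.4 and 96.6 CPM in WT and 82.7, 98.6 and 95.3 CPM in KO (-0.13, SE 0.10, adjusted p = 0.555). Usp18, a protease that removes ISG15 and restrains receptor signalling, had 14.8, 15.7 and 13.97 CPM in WT and 15.7, 13.2 and 20.1 CPM in KO, with KO libraries at both ends of the range (0.14, SE 0.16, adjusted p = 0.707). Isg15, the ubiquitin-like modifier itself, was near the bottom of the list at 1.23, 2.12 and 0.704 CPM in WT and 0.990, 1.87 and 1.24 CPM in KO (0.017, SE 0.45, adjusted p = 0.992). Dtx3l, a ubiquitin ligase that partners PARP9, had 24.4, 24.6 and 23.6 CPM in WT and 20.7, 24.5 and 22.2 CPM in KO (-0.11, SE 0.09, adjusted p = 0.594). Parp9 lies on the opposite strand and shares exon bases with it in mm9, so without strand, reads from the shared bases cannot be told apart.

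The ADP-ribosylation genes had mean levels of 18.7 to 31.0 CPM over all libraries. Parp9 had 18.9, 21.2 and 17.1 CPM in WT and 17.5, 18.3 and 19.0 CPM in KO (-0.057, SE 0.10, adjusted p = 0.823). Parp12, an antiviral mono-ADP-ribosyltransferase, had 25.7, 32.0 and 32.5 CPM in WT and 28.9, 32.7 and 33.8 CPM in KO (0.081, SE 0.11, adjusted p = 0.770). Parp14, a macrodomain-containing enzyme of the same family, had 30.0, 30.5 and 21.1 CPM in WT and 19.5, 28.1 and 25.6 CPM in KO (-0.16, SE 0.19, adjusted p = 0.720). In Parp14 the lowest WT and the lowest KO library were again WT replicate 3 and KO replicate 1.

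RNA-binding effectors formed the largest role, with 11 genes and a median log2 fold change of -0.0061. Adar, which encodes the ADAR1 enzyme that edits adenosine to inosine in double-stranded RNA (chromosome 3, 89518944 to 89557368), had 49.3, 47.7 and 42.7 CPM in WT and 38.7, 40.9 and 40.9 CPM in KO. All KO libraries were below all WT libraries, by less than 2 CPM between the nearest, and edgeR put the log2 fold change at -0.21 (SE 0.08, adjusted p = 0.260). Isg20, an RNA exonuclease, was the highest per length of the 38 genes with an annotated length, at 28.1 CPM per kilobase of exon in WT and 29.3 in KO, with levels of 58.4, 49.4 and 46.2 CPM in WT and 50.2, 55.4 and 54.99 CPM in KO (0.061, SE 0.10, adjusted p = 0.807). Samd9l, a translation-restricting antiviral protein, had 30.3, 26.7 and 16.4 CPM in WT and 15.4, 16.8 and 20.7 CPM in KO. Its WT replicate 3 sat among the KO libraries (-0.47, SE 0.23, adjusted p = 0.371). Eif2ak2, the double-stranded RNA-dependent kinase PKR, varied least of these, from 18.4 to 21.8 CPM over all libraries (-0.0061, SE 0.10, adjusted p = 0.985).

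The IFIT and OAS genes, which bind foreign RNA or make the activator of RNase L, were low and variable. Oas2 had 2.66, 4.16 and 1.07 CPM in WT and 0.723, 3.32 and 1.47 CPM in KO, so each genotype held both high and low libraries (-0.52, SE 0.65, adjusted p = 0.735). Oasl2, an OAS-like protein, had 3.44, 6.80 and 3.48 CPM in WT and 1.52, 6.84 and 9.50 CPM in KO, a 6.24-fold range whose ends were both KO libraries (0.38, SE 0.61, adjusted p = 0.800). Ifit1, which recognises RNA with an unmethylated cap, had 3.74, 3.23 and 2.82 CPM in WT and 2.97, 4.32 and 5.28 CPM in KO (0.36, SE 0.25, adjusted p = 0.527). Ifit2 ran from 2.21 to 3.55 CPM, Ifit3 from 1.22 to 3.81, Oas1a from 1.45 to 2.90 and Oasl1 from 0.723 to 2.62, and in each of these 4 genes KO replicate 1 was the lowest KO library. Several of these genes have close copies, which may share or lose reads, so their values are less certain.

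Of the interferon-induced GTPases in this set, Gbp2, Gbp3 and Gbp7 leaned higher and the MX genes lower in KO, and none passed. GBP genes outside this set went both ways. Gbp4 (-0.41), Gbp5 (-0.076) and Gbp9 (-0.18) leaned lower in KO, Gbp6 (0.45) and Gbp8 (0.58) leaned higher, and none of these passed. Gbp7, a guanylate-binding protein of host defence (chromosome 3, 142193302 to 142213047), had 9.20, 9.96 and 8.01 CPM in WT and 10.2, 10.4 and 10.4 CPM in KO. The KO libraries were close together and just above WT replicate 2 (0.19, SE 0.12, adjusted p = 0.475). Gbp3 had 3.59, 4.68 and 3.04 CPM in WT and 4.42, 6.03 and 4.53 CPM in KO (0.40, SE 0.23, adjusted p = 0.431), and Gbp2 ran from 3.002 to 4.85 CPM (0.25, SE 0.21, adjusted p = 0.595). Mx1 and Mx2 encode dynamin-like antiviral GTPases. Mx1 rested on few reads, 28, 26 and 7 in the WT libraries against 3, 8 and 11 in the KO libraries. WT replicate 3 overlapped the KO libraries (-1.43, SE 0.64, adjusted p = 0.334). Mx2 had 26, 40 and 17 reads in the WT libraries against 13, 13 and 16 in the KO libraries, a gap of a single count between the nearest libraries before scaling (-0.95, SE 0.38, adjusted p = 0.284).

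Cmpk2 showed the contrast between libraries most plainly. This mitochondrial nucleotide kinase gene (chromosome 12, 27154069 to 27164700) had 45.9, 45.8 and 26.4 CPM in WT and 26.04, 45.7 and 47.2 CPM in KO. In each genotype a pair of libraries was near 46 CPM and the other was near 26, and the log2 fold change between genotypes was 0.011 (SE 0.29, adjusted p = 0.992). Its neighbour Rsad2, which encodes the antiviral enzyme viperin, had 8.04, 9.67 and 6.67 CPM in WT and 6.05, 9.09 and 14.3 CPM in KO, with the same libraries lowest (0.27, SE 0.31, adjusted p = 0.705). Bst2, a membrane protein that tethers virions, had 5.01, 7.51 and 5.26 CPM in WT and 7.004, 7.83 and 7.39 CPM in KO (0.32, SE 0.19, adjusted p = 0.444). Rtp4, a chaperone of membrane receptors, had 4.12, 4.50 and 2.89 CPM in WT and 2.40, 3.97 and 4.56 CPM in KO, again with WT replicate 3 and KO replicate 1 lowest (-0.073, SE 0.29, adjusted p = 0.928).

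The remaining induced genes did not share one course. Ifi27, a mitochondrial membrane protein gene, had 20.8, 26.03 and 17.4 CPM in WT and 21.0, 21.7 and 18.9 CPM in KO (-0.060, SE 0.15, adjusted p = 0.881). Ifi35, which encodes a leucine zipper protein, ran from 9.81 CPM in KO replicate 3 to 14.1 CPM in KO replicate 2 (-0.058, SE 0.15, adjusted p = 0.880). Xaf1, a pro-apoptotic antagonist of XIAP, had 7.33, 3.46 and 5.23 CPM in WT and 4.45, 2.1 and 2.87 CPM in KO, with overlap (-0.76, SE 0.37, adjusted p = 0.358). Ifi44 had the largest positive value of the 39, with 1.38, 3.01 and 3.04 CPM in WT and 2.06, 6.03 and 5.73 CPM in KO. KO replicate 1 lay within the WT range (0.89, SE 0.47, adjusted p = 0.406).

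**Figure D2:**
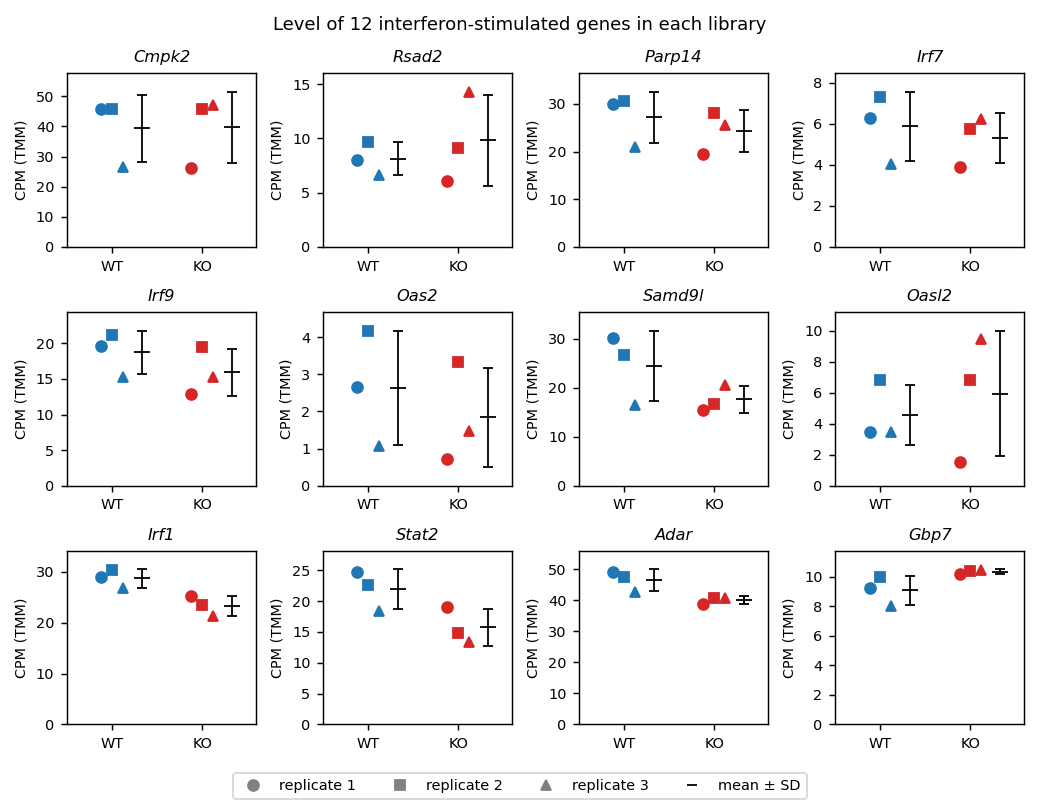
Level in CPM scaled by TMM (y axes, from 0) of 12 interferon-stimulated genes in the WT (blue) and KO (red) libraries, with 1 symbol per replicate number and the mean ± SD of 3 libraries beside them. In Cmpk2 WT replicate 3 (26.4 CPM) and KO replicate 1 (26.04 CPM) sit apart from the other 4 libraries, and in Irf1, Adar and Gbp7 the groups do not overlap.

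Many of these genes were low together in the same libraries, 1 of each genotype. WT replicate 3 was the lowest WT library for 29 of the 39 genes (74.4%), against 37.5% of all tested genes. KO replicate 1 was the lowest KO library for 29 of the 39 as well, against 34.7% of all tested genes. For 22 genes (56.4%) both held, against 12.5% of all tested genes, and for 16 (41.0%) these were the lowest 2 of all 6 libraries, against 6.2%. The 18 genes with a mean of 10 CPM or more showed it in 5 cases (27.8%). The 16 were Dhx58, Irf7, Irf9, Isg15, Parp9, Parp14, Ifit1, Ifit2, Oas1a, Oas2, Oasl1, Samd9l, Mx1, Rsad2, Cmpk2 and Rtp4. Being lowest in both held for 6 of the 13 genes with the core in the searched window, for 9 of the 16 without it and for 7 of the 10 with no promoter entry. This pattern was seen in the values and then counted, so it is a description with no test.

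**Figure D3:**
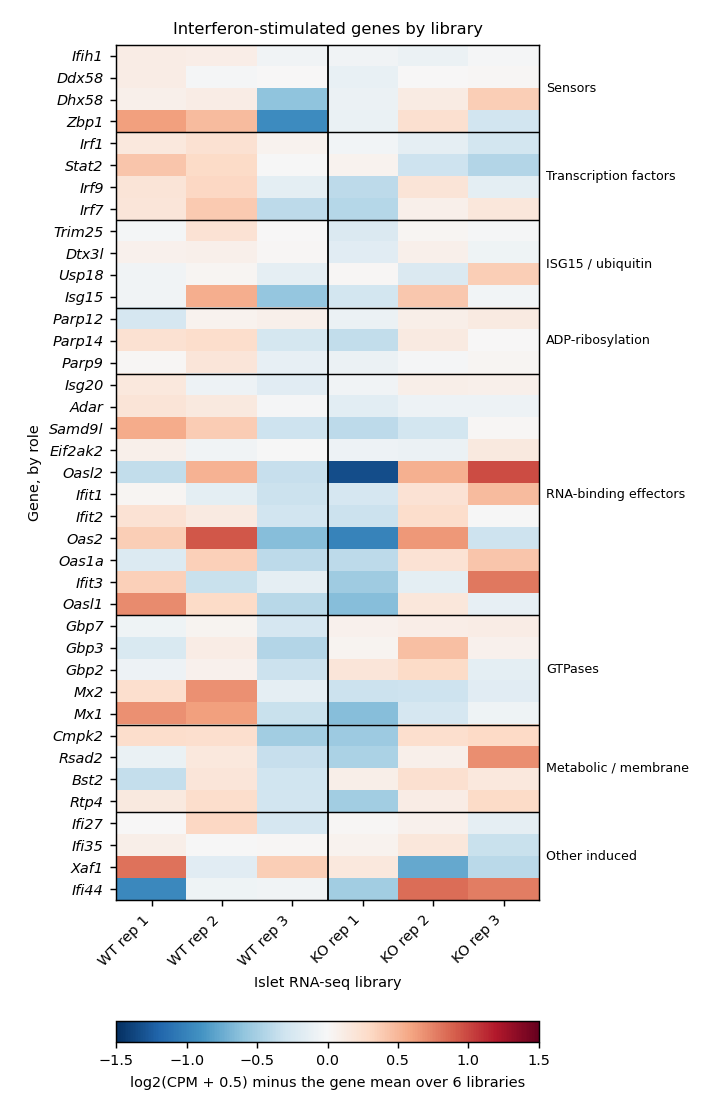
Log2(CPM + 0.5) minus the gene's mean over the 6 libraries (colour) for the 39 interferon-stimulated genes, grouped by role (rows), in each library (columns). WT replicate 3 and KO replicate 1 carry most of the blue, each being the lowest library of its genotype for 29 genes.

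Medians over the genes give the size of this shift. On a log2(CPM + 0.5) scale the median deviation of the 39 genes from their own mean was 0.11, 0.18 and -0.26 in the WT libraries and -0.16, 0.085 and 0.012 in the KO libraries. For all tested genes it stayed between -0.0033 and 0.011. The summed level of the 39 genes was 646.2, 671.5 and 549.1 CPM in WT and 528.8, 617.1 and 618.5 CPM in KO. The mean was 622.3 ± 64.6 CPM (SD, n = 3) in WT and 588.1 ± 51.4 CPM in KO, so the genotypes overlapped. Within groups the coefficient of variation had a median over the 39 genes of 20.2% in WT and 18.8% in KO, beside 11.8% and 10.7% over all tested genes, which are more abundant (median 13.6 CPM, against 8.97 CPM for the 39).

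Which libraries were included set the sign of the median fold change. Without KO replicate 1 it was 0.028 and without WT replicate 2 it was 0.016, while without WT replicate 3 it was -0.15, and 0 of the 39 genes passed in any of these. With sex as a covariate the median was -0.27, and with KO replicate 1 alone against WT it was also -0.27, as both rest on that library. Here too 0 of the 39 passed.

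Upstream of these genes, interferon transcripts were at or near 0 counts while receptors and kinases were expressed. Of 21 interferon genes, among them the interferon alpha genes and Ifnb1, 19 had 0 counts in every library, and none passed the filter. A single count of Ifnk and 7 counts of Ifng, 6 of them in KO replicate 1 and 1 in KO replicate 2, made up the rest. A count of 0 allows up to 3 counts per library here. Ifnar1, a chain of the type I receptor, had 42.8, 42.3 and 37.5 CPM in WT and 35.1, 34.7 and 33.5 CPM in KO. All KO libraries were below all WT libraries (-0.25, SE 0.08, adjusted p = 0.212). The other chain, Ifnar2, overlapped (0.11, SE 0.11, adjusted p = 0.671). Of 6 receptor genes edgeR and DESeq2 called 0, with 2 lower before adjustment (p below 0.05), where 9.38% of all tested genes were. Groups did not overlap in 2 of the 6, Ifnar1 and Ifnlr1, both lower in KO, against 12.1% of all tested genes.

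Among 13 signalling genes, edgeR and DESeq2 called 0 and 11 had negative fold changes, against 49.7% of all tested genes. Most of these were small, and the median log2 fold change was -0.036. Before adjustment 1 of the 13 was lower (p below 0.05), where 9.38% of all tested genes were. WT replicate 3 and KO replicate 1 were the lowest 2 of 6 libraries for 4 of the 13 (30.8%), beside 6.2% of all tested genes. The kinase genes Jak1 (-0.0020, SE 0.09, adjusted p = 0.994) and Jak2 (-0.14, SE 0.08, adjusted p = 0.456) did not pass. The gene lower before adjustment was Tyk2, the other kinase of the type I receptor, named after its values were seen, with 22.1, 24.5 and 15.1 CPM in WT and 15.9, 13.7 and 15.7 CPM in KO. WT replicate 3 lay among the KO libraries (-0.45, SE 0.18, adjusted p = 0.292). Without WT replicate 3, Ptpn6, a phosphatase of blood cells, was called lower (-0.90, adjusted p = 0.0457). That fit called more genes lower over all genes than the 27 of the main fit.

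Of 17 genes for nucleic acid sensing and the relay to interferon, 16 were tested, since Trex1 had 0 counts in every library. Here edgeR and DESeq2 called 0, and 4 were lower before adjustment, where 9.38% of all tested genes were. The median log2 fold change was -0.19, with 13 of 16 negative, against 49.7% of all tested genes. WT replicate 3 and KO replicate 1 were the lowest 2 of 6 libraries for 0 of the 16, and for 0 of the 6 receptor genes. Tlr3, an endosomal double-stranded RNA receptor, was even across libraries (-0.083, SE 0.11, adjusted p = 0.749). Tlr7, an endosomal receptor for single-stranded RNA, had 5.50, 4.50 and 1.56 CPM in WT and 2.21, 2.41 and 1.66 CPM in KO, with WT replicate 3 lowest (-0.88, SE 0.45, adjusted p = 0.388). The smallest adjusted p belonged to the kinase gene Ikbke, which had 5.54, 7.73 and 5.82 CPM in WT and 4.19, 3.40 and 4.34 CPM in KO (-0.68, SE 0.19, adjusted p = 0.190). The groups did not overlap in this gene, nor in the adaptor gene Traf3 (-0.30, SE 0.08, adjusted p = 0.192). The same held for Irf3 (-0.33, SE 0.12, adjusted p = 0.255) and the low gene Mb21d1 (-0.79, SE 0.28, adjusted p = 0.248). These were 4 of the 16, all lower in KO, against 12.1% of all tested genes.

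A second list of 55 interferon-response genes was also often lowest in WT replicate 3. Of 51 tested, edgeR and DESeq2 called 0, with 1 lower and 4 higher before adjustment (9.38% and 6.99% of all tested genes), and the median log2 fold change was -0.076. WT replicate 3 was the lowest WT library for 30 (58.8%) and KO replicate 1 the lowest KO library for 23 (45.1%), and for 11 (21.6%) these were the lowest 2 of 6, beside 6.2% of all tested genes. Ifi27l2a had 7.82, 8.48 and 1.30 CPM in WT and 3.84, 3.48 and 2.90 CPM in KO (-0.78, SE 0.60, adjusted p = 0.567). Ifi47, an immunity-related GTPase, had 6.17, 8.22 and 2.33 CPM in WT and 5.56, 5.38 and 3.36 CPM in KO (-0.23, SE 0.44, adjusted p = 0.839). The restriction factor gene Ifitm2, named after its values were seen, had 6.32, 6.10 and 6.89 CPM in WT and 9.48, 8.90 and 8.00 CPM in KO. Its groups did not overlap (0.45, SE 0.13, adjusted p = 0.188). Of the 51, such separation held for 2 with KO higher and 1 with KO lower, against 11.3% and 12.1% of all tested genes. The other with KO higher was Iigp1, with 1.65, 3.27 and 1.82 CPM in WT and 3.31, 5.19 and 5.51 CPM in KO. Its estimate was 1.06 (SE 0.33, adjusted p = 0.214), and the nearest libraries were close. The one with KO lower was Oas1b (-0.62, SE 0.30, adjusted p = 0.370). Without WT replicate 3 the coactivator gene Helz2 (-1.17, adjusted p = 0.0411) and Ciita, the master regulator of MHC class II genes (-1.46, adjusted p = 0.0484), were called lower by edgeR. Over all genes, too, the fit without that library called more genes lower than the 27 of the main fit.

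Leukocyte markers also varied by library, and in a different order. In bulk islets, fewer cells of a type and less RNA per cell cannot be told apart. A set of 8 T lymphocyte genes, among them Cd3e, Cd4 and Trac, summed to 21.1, 28.8 and 9.12 CPM in WT and 29.8, 20.2 and 10.3 CPM in KO. WT replicate 3 was the lowest WT library for them, as for most of the interferon-stimulated genes, but KO replicate 1 was the highest KO library. The whole lymphocyte list of 15 genes, none at 0 in every library, ranged from 39.8 to 228.3 CPM in WT and from 92.3 to 151.8 CPM in KO (exact permutation p = 0.4, two-sided, smallest possible 0.1). Macrophage genes, 16 of a list of 17 being in the table and none at 0 throughout, summed to 218.5, 262.1 and 222.1 CPM in WT and 322.0, 242.4 and 172.4 CPM in KO (exact permutation p = 0.8, two-sided). The highest sum was in KO replicate 1, where Lyz2, a lysozyme gene, made up 124.0 of it, and 7 of the 16 genes were highest there. Without Lyz2 the sum was 190.3, 209.6 and 144.3 CPM in WT and 197.9, 157.2 and 146.4 CPM in KO. WT replicate 2 was then highest and KO replicate 1 still the highest KO library. Ptprc, which lymphocytes also express, weighed on that sum, so the sum is not specific to macrophages. It had 103.6, 101.4 and 21.3 CPM in WT and 61.5, 36.2 and 35.7 CPM in KO. The median log2 deviation of the 16 genes was -0.49, -0.0047 and 0.21 in WT and 0.30, 0.30 and -0.24 in KO. By this measure WT replicate 3 was the highest WT library, not the lowest. A list of 6 genes used for plasmacytoid dendritic cells was dominated by Klk1, a kallikrein gene, and ranged from 321.9 to 890.8 CPM in WT and from 290.6 to 510.5 CPM in KO (exact permutation p = 0.6, two-sided). Its defining marker Siglech stood at 0.823, 0.892 and 3.04 CPM in WT and 1.64, 2.18 and 0.717 CPM in KO. Endothelial genes, 12 of 12, summed to 457.0 to 573.3 CPM in WT and 638.0 to 664.0 CPM in KO (exact permutation p = 0.1), where DESeq2 called 3 of them higher and edgeR 0, with 7 higher before adjustment. Over all tested genes these shares were 1.31% for DESeq2, 0% for edgeR and 6.99% before adjustment. Acinar genes, 13 of 14 being in the table, summed to 25671 to 82081 CPM in WT and 19665 to 50500 CPM in KO (exact permutation p = 0.6). The part of these other cell types in the levels of the 39 genes was not tested, beyond fits with the macrophage or the lymphocyte sum as a covariate, in which 0 of the 39 passed and their median was -0.062 and -0.015.

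**Figure D4:**
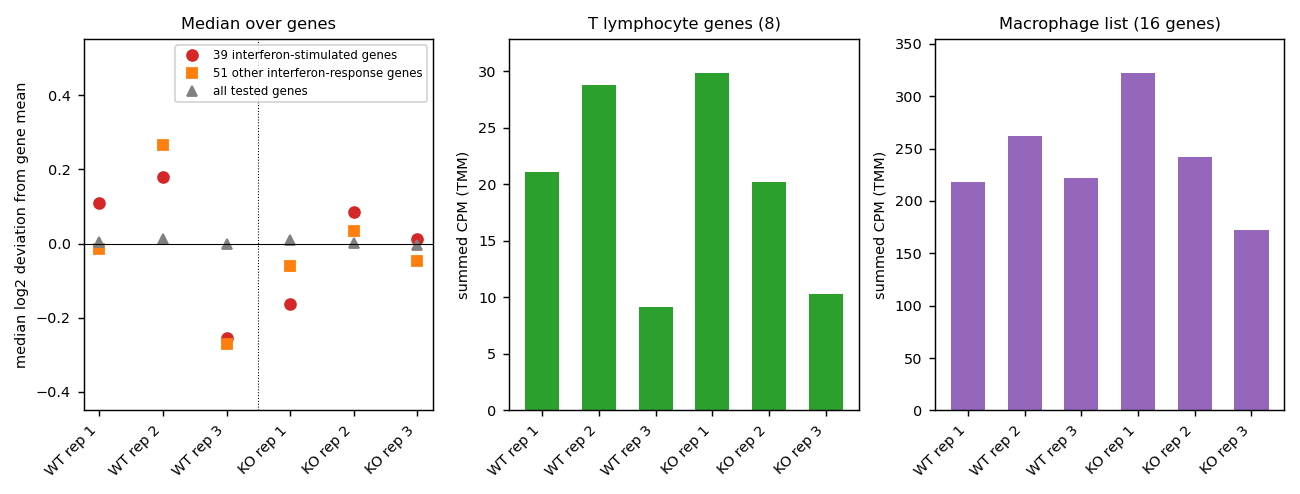
Left, median log2 deviation from each gene's own mean (y axis) over the 39 interferon-stimulated genes, the 51 tested genes of the second interferon-response list and all tested genes, per library. Middle and right, summed CPM scaled by TMM (bars from 0) of 8 T lymphocyte genes and of the 16 genes of the macrophage list: KO replicate 1 is low on the left (-0.16 for the 39 genes) but has the highest macrophage sum, 322.0 CPM, of which Lyz2 makes up 124.0.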

How the data were processed

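RNA was sequenced from isolated islets of 6-week-old mice in 6 libraries, 3 WT and 3 KO, with groups and replicate numbers taken from the labels. Build mm9, HISAT2 2.1.0, CASAVA 1.8.2, DESeq2 and HTSeq are listed, per the submitters' processing notes. The annotation, the counting options and the use of strand were not given in the sources used here. Reads of overlapping genes on opposite strands cannot be told apart unless strand was used, and 9 of the 39 genes share exon bases with another annotated gene. For Irf9 that gene, Rnf31, lies on the same strand, so strand would not separate them. The deposited table holds raw read counts that the authors had not normalized, with 0 unused sample columns. Dates stood in place of 24 gene names, which are not named here. Some genes are not reported here.

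The main test was that of edgeR 4.0.16 under R 4.3.3 (filterByExpr, TMM, quasi-likelihood F-test on genotype, Benjamini-Hochberg adjustment over 15915 genes, threshold 0.05). SE is the fold change divided by the square root of F, and 95% intervals use the fit's degrees of freedom. Exonic length and positions came from GENCODE vM1 on mm9 (38 of the 39 genes matched), promoters from a RefSeq-derived table of GRCm38.p6, whose coordinates are not those of mm9. Alternatives were DESeq2 1.42.0, limma-voom (limma 3.58.1), other scalings, filters and thresholds, robust empirical Bayes, the replicate block, sex and macrophage covariates, KO replicate 1 alone, and leaving out each library. A lymphocyte covariate and smooth length offsets were added after seeing the data. In data simulated for this comparison over 15915 genes, the edgeR step recovered 17.9%, 52.2% and 92.4% of genes changed 1.5-fold, 2-fold and 4-fold. Exact permutation tests were run with SciPy 1.17.1, and figures were drawn with matplotlib 3.10.9. The genes, lists and tests were chosen with earlier results of these data known. Given in full are genes of at least 1 CPM whose groups did not overlap and the first 3 by mean CPM of each role. In the other lists up to 4 called genes, or else the first 2 tested, are named. Others named were chosen after their values were seen.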

Additional observations from a re-analysis of the deposited data

How the results depend on the processing

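Over all genes, the counts of 27 lower and 0 higher became 125 and 7 at an adjusted p below 0.1 and 437 and 209 in DESeq2. The lower count was 0 in limma-voom, with the replicate block, with the sex or the macrophage covariate, with length offsets and with KO replicate 1 alone against WT (1 higher), and 13 with the lymphocyte covariate. Leaving out each library gave 0 to 80 lower, 80 of them without WT replicate 3, and 0 to 9 higher. None of the 39 interferon-stimulated genes passed an adjusted p below 0.05 in any of these, and the smallest adjusted p in any alternative was 0.0986, for Samd9l without WT replicate 3. The median log2 fold change of the 39 genes ran from -0.15 to 0.028 when libraries were left out and was -0.27 with the sex covariate and -0.27 with KO replicate 1 alone. Leaving out a library gave 0 to 3 calls in the pathway lists.

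Of 778 values of single genes under the alternatives, 58 changed sign, in 20 of the 39 genes, all without a call. With KO replicate 1 alone they were Isg15 (-0.45), Parp12 (-0.056), Ifit1 (-0.14), Ifit3 (-0.70), Oas1a (-0.45), Oasl2 (-1.58), Isg20 (-0.031), Rsad2 (-0.42), Cmpk2 (-0.59), Ifi35 (0.016) and Ifi44 (-0.27), and with the sex covariate, in the same order, -0.45, -0.057, -0.14, -0.70, -0.46, -1.58, -0.032, -0.43, -0.60, 0.015 and -0.27. With length offsets they were Ddx58 (0.035), Isg15 (-0.022), Parp9 (0.0098), Ifit2 (0.00081) and Eif2ak2 (0.063). Zbp1 (0.11) and Ifit2 (0.0078) turned with the lymphocyte covariate, Cmpk2 (-0.013) with the macrophage covariate, and Eif2ak2 with no low-count filter (0.0061) and upper-quartile scaling (0.0098). Ranges over the left-out libraries that crossed 0 were Cmpk2 -0.20 to 0.24, Eif2ak2 -0.088 to 0.038, Ifi27 -0.18 to 0.10, Ifi35 -0.17 to 0.081, Ifit2 -0.22 to 0.11, Ifit3 -0.42 to 0.49, Irf7 -0.35 to 0.039, Isg15 -0.28 to 0.50, Oas1a -0.015 to 0.52, Oasl2 -0.13 to 0.84, Parp12 -0.014 to 0.15, Parp9 -0.12 to 0.026, Rsad2 -0.10 to 0.53, Rtp4 -0.27 to 0.15, Usp18 -0.038 to 0.27 and Zbp1 -0.72 to 0.050. The cause was not tested.

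The replicate block changed no call among the 39 genes, and their median was -0.053. Same-numbered libraries deviated together with correlations of 0.18, 0.058 and 0.032, not each above 0.1, and WT replicates 2 and 3 correlated best with another number, so the numbers were not taken as pairs. Counts limit Mx1 and Mx2, which had 3 to 40 per library. SE was above 0.3 in 12 of the 39, and as edgeR recovered 52.2% of simulated 2-fold changes over all genes, changes of that size could be missed.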
